A study of Homo sapiens with 9 samples.

Results

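The inducible heat-shock genes described here are HSPA6, HSPA1A, HSPA1B, HSPA1L, DNAJB1, HSPH1, BAG3, HSPB1, CRYAB and the gene of their activator, HSF1. They were matched by gene symbol, and all 10 were found among the 31558 genes of the count table. RNA was sequenced from HCT116, an established human colorectal cancer line, in 3 groups of 3 biological replicates. The first group overexpressed the long noncoding RNA CRLM1 (CRLM1-OE), the second carried the empty plasmid (Ctrl), and the third carried a plasmid with the CRLM1 sequence in antisense (Anti). The design text speaks of stable cell lines and the paper of transfected cells; if each group was 1 selected line, the expressed sequence and the line that carries it cannot be told apart. No source says whether the biological replicates came from separate transfections or cultures, so no p-value can be taken to cover spread beyond these samples. In the main edgeR fit each gene was given the spread of a common trend over all genes, not that of its own replicates. The genes were chosen with the values of CRLM1-OE against Ctrl known, HSPA6 and HSPA1A being among the strongest rises there. That comparison is therefore given as a description of these genes, with no p-value, and its counts of calls support nothing. Both other comparisons share samples with it, so their p-values are not independent of that choice. The lists of other genes were also chosen with earlier results known, so p-values printed for list genes are descriptions too.

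Cells that meet heat or other protein-damaging stress release the transcription factor HSF1 from chaperones. HSF1 then forms trimers, binds heat shock elements near gene starts and switches on chaperone genes. HSPA1A and HSPA1B encode the same stress-inducible HSP70 protein, whereas HSPA6 is a strictly inducible relative that is nearly silent in unstressed cells. DNAJB1 is an HSP40 co-chaperone that stimulates the ATPase of HSP70, and HSPH1 (HSP110) and BAG3 act as its nucleotide exchange factors. HSPB1 and CRYAB are small heat shock proteins that hold unfolded clients, and HSPA1L is a close HSP70 relative best known from testis.

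A heat shock element is built from alternating GAA and TTC units with gaps of NN between them, so that 2 adjacent units read GAANNTTC or TTCNNGAA on either strand. The 250 bases before each annotated start were searched for such runs in RefSeq promoters of GRCh38.p14, which hold 10 windows for 8 of the 10 genes; HSF1 and CRYAB have none there. Windows with at least 2 units made up 11.6% of all 35116 windows, and those with at least 3 units made up 0.441%. HSPA6 held a run of 3 units from 74 to 62 bases before its start and a run of 2 units from 180 to 173 bases before it. HSPA1A, HSPA1B and HSPB1 each held 1 run of 2 units, DNAJB1 held a pair of such runs in 1 of its 3 windows, and BAG3 and HSPH1 held none. HSPA1L and HSPA1A start next to each other on opposite strands and share their run. The windows below, with the runs in capitals, belong to HSPA6 and the HSPA1A and HSPA1B pair, on which the results turn, and to DNAJB1, the best-expressed co-chaperone. A match describes letters and was not measured as a bound site. Units with other letters, or outside these 250 bases, were not searched for, so a gene without a run is not shown to lack an element.
HSPA6, plus strand, chr1:161524290-161524539: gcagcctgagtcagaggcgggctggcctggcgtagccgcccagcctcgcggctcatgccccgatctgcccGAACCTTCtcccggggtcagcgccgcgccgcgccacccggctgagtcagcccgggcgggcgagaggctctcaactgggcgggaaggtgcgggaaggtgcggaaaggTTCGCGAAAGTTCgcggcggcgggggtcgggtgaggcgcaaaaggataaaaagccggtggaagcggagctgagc
HSPA1A, plus strand, chr6:31815293-31815542: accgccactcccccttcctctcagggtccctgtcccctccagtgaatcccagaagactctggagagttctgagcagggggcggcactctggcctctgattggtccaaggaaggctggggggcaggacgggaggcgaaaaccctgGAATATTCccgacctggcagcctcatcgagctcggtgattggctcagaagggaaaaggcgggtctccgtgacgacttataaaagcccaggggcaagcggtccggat
HSPA1B, plus strand, chr6:31827488-31827737: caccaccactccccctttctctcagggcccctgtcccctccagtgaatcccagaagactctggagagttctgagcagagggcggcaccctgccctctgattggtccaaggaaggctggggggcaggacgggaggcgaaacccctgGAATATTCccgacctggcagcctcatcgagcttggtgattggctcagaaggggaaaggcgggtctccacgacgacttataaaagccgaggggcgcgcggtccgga
DNAJB1, minus strand, chr19:14518398-14518647: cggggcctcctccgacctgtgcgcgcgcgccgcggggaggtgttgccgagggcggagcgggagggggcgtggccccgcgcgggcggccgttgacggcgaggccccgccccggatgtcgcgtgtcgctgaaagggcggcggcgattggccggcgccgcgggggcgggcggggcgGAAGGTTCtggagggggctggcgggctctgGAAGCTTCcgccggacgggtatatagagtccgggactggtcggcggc
The windows of HSPA1A and HSPA1B were identical at 235 of 249 aligned bases (94.4%), including the capitals.

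**Figure D1:**
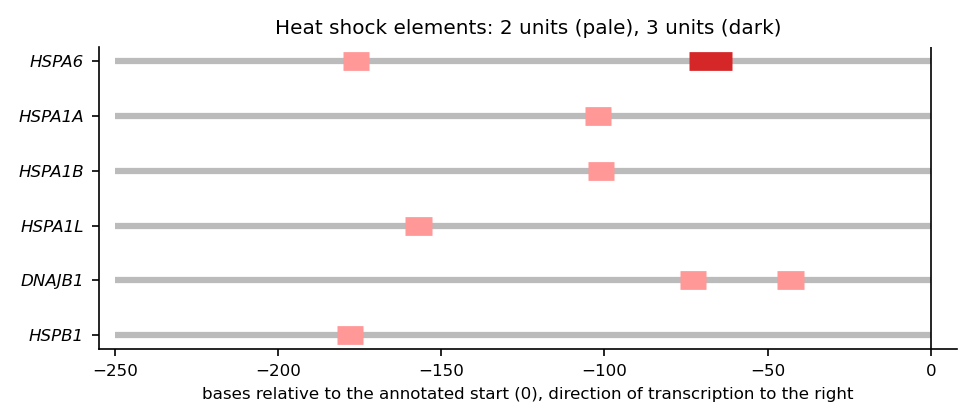
Position of each run of heat shock element units in the 250 bases before the annotated start (x axis, bases; 0 is the start) for the 6 genes with a run; pale boxes have 2 units and the dark box has 3. The run of 3 units is in the HSPA6 window, from 74 to 62 bases before the start.

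Total counts ranged from 33302292 to 44514692 per sample, and 3 counts corresponded to 0.0674 to 0.0901 CPM (counts scaled to the library size), a floor that covers counting error only. The gene of CRLM1, listed as RP4-710M16.2, was at 0 counts in all Ctrl samples, at 1540 to 1951 in Anti and at 32751 to 38704 in CRLM1-OE. Since the use of strand in counting is not given in the sources used here, sense and antisense reads cannot be told apart in these counts, and those in Anti may be of the antisense insert. Of the epithelial markers, KRT8 had a mean FPKM (fragment counts divided by exon length and library size) of 1290 to 1410 in the groups and EPCAM of 74.4 to 93.1. KRT18 was lower in CRLM1-OE, at a mean of 426 FPKM against 785 in Ctrl and 826 in Anti, and KRT19 was lower in Anti, at 2300 against 3240 in Ctrl and 3110 in CRLM1-OE, whereas VIL1, CDX1 and CEACAM5 were at or near 0. The summed FPKM of 8 epithelial markers was 4850 to 4980 in CRLM1-OE, 5520 to 5560 in Ctrl and 4570 to 4620 in Anti. Summed fibroblast markers reached 2.07 to 2.5 in CRLM1-OE against 1.19 to 1.42 in the other groups, nearly all of it COL1A1, and leukocyte and endothelial markers stayed at or below 2.17. Mitochondrial genes took 5.62 to 5.71% of the counts in CRLM1-OE, 6.39 to 6.54% in Ctrl and 7.17 to 7.28% in Anti. Whether these shifts bear on the heat-shock genes was not tested.

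Together the 10 genes took 0.35 to 0.366% of all counts in CRLM1-OE, 0.214 to 0.22% in Ctrl and 0.203 to 0.206% in Anti. By FPKM, which corrects for exon length, the order was HSPB1, DNAJB1, HSPA1B, HSF1 and BAG3 in every group, with no overlap between neighbours. HSPA1A and HSPA1B share most of their sequence and only uniquely mapped reads were counted. Their FPKM may therefore be too low against other genes, and their places in the order are uncertain. In CRLM1-OE, HSPA1A followed at 43.0 ± 13.7 FPKM (SD, n = 3), then HSPH1 at 12.0 ± 0.171 and HSPA6 at 4.36 ± 0.441. In Ctrl, HSPA1A at 4.60 ± 0.381 FPKM stood below HSPH1 at 5.89 ± 0.0723, so this pair changed places between the groups; in Anti they overlapped. HSPA1L and CRYAB were the lowest in all groups and never exceeded 25 counts in a sample. Because RNA was taken from whole cultures, a larger share of responding cells and more RNA per cell cannot be told apart.

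**Figure D2:**
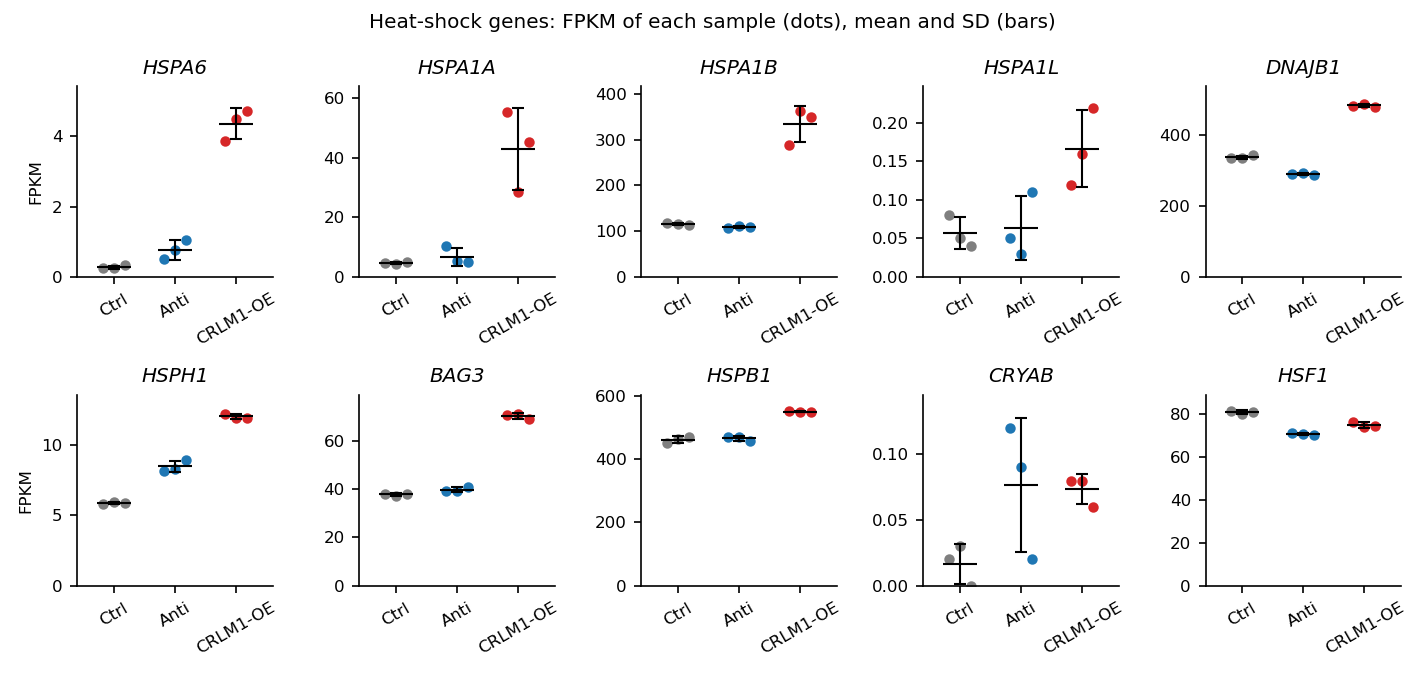
FPKM (y axis, linear and starting at 0, a scale per gene) of each of the 10 genes in the 3 Ctrl, 3 Anti and 3 CRLM1-OE samples; dots are samples and bars the mean with SD. The CRLM1-OE dots of HSF1 lie below its Ctrl dots, and those of the other genes lie above. The genes were chosen on this comparison and the share of all genes separated in this way was not counted, so nothing is read from it.

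HSPA6 was at 440, 405 and 489 counts in CRLM1-OE replicates 1 to 3, at 28, 25 and 30 in Ctrl, and at 53, 76 and 98 in Anti. The 3 groups did not overlap: Ctrl was lowest, Anti intermediate and CRLM1-OE highest. As FPKM, the means were 0.273 ± 0.0416 in Ctrl, 0.760 ± 0.275 in Anti and 4.36 ± 0.441 in CRLM1-OE (SD, n = 3). Against Ctrl, the log2 fold change of CRLM1-OE was 3.90 (SE 0.14), which is 14.9-fold and the highest value among the 10 genes. Against Anti it was 2.49 (SE 0.113, adjusted p = 8.18e-106, edgeR's quasi-likelihood test). Anti itself exceeded Ctrl by 1.39 on the log2 scale (SE 0.215, adjusted p = 1.62e-09, edgeR). HSPA6 was thus not equally low in both control lines. Of the HSPA6 transcript, 15.1% of the 151-base windows also occur in its pseudogene HSPA7, which had 0 to 2 counts per sample.

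HSPA1A reached 6602, 2670 and 4894 counts in CRLM1-OE, 565, 430 and 490 in Ctrl, and 1150, 543 and 482 in Anti. Every CRLM1-OE sample was above every other sample, yet CRLM1-OE replicates differed among themselves, at 151, 76.2 and 123 CPM. In Anti, replicate 1 stood at 28.4 CPM and the others at 14.5 and 13.7, close to the 12.5 to 14.7 of Ctrl. The log2 fold change of CRLM1-OE was 3.12 against Ctrl and 2.62 against Anti. The fit with edgeR gave every gene the spread of the common trend, so its SE of 0.0433 and 0.0385 leave out HSPA1A's own replicate spread. A robust fit, chosen after seeing the data, lets outlying genes keep their own spread and gave SE of 0.365 and 0.442. Against Anti the adjusted p was 0.013 in that robust edgeR fit, against 1e-300, the smallest value written, in the main one. Between Anti and Ctrl the log2 difference was 0.47 (adjusted p = 6.54e-11 in the main edgeR fit, 0.556 in the robust one). It rested on Anti replicate 1: without it the log2 difference was 0.03 (adjusted p = 0.853, edgeR).

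HSPA1B, which carries most of the counts of this pair, was at 34953, 34848 and 38406 counts in CRLM1-OE, at 14756, 11799 and 11339 in Ctrl, and at 12272, 11815 and 11026 in Anti. CRLM1-OE was above both control groups without overlap, and Anti was slightly below Ctrl once scaled for depth, at 303 to 315 against 340 to 349 CPM. The log2 fold change was 1.42 against Ctrl (robust SE 0.106) and 1.57 against Anti (robust SE 0.112, robust edgeR adjusted p = 0.000567). Anti was lower than Ctrl by 0.17 on the log2 scale, a value of -0.17 (SE 0.0232, adjusted p = 9.95e-13, edgeR), or -0.07 with total counts as the only scaling (adjusted p = 0.00998, edgeR). Against Ctrl the deposited counts gave 8.69-fold for HSPA1A and 2.67-fold for HSPA1B, and the part of read assignment in this gap was not tested.

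Reads of this pair are hard to assign, and only uniquely mapped reads were counted. Of the 151-base windows, 1565 of 2250 in the HSPA1A transcript (69.6%) and 1565 of 2367 in that of HSPA1B also occur in the other gene of the pair. The share for HSPA1B is 70.1% with ENSG00000285565, whose exons overlap it on the same strand. HSPA1A made up 15.9, 7.12 and 11.3% of the summed counts of both genes in CRLM1-OE replicates 1 to 3. In Ctrl the share was 3.69, 3.52 and 4.14%, and in Anti 8.57, 4.39 and 4.19%; the 95% Wilson intervals were 6.86 to 7.38% for CRLM1-OE replicate 2 and 8.11 to 9.05% for Anti replicate 1. The share therefore differed between replicates of CRLM1-OE and of Anti beyond counting error. In both groups replicate 1 had the most HSPA1A and the least HSPA1B, in CPM. Summed, the pair was steadier, with 947, 1070 and 1090 CPM in CRLM1-OE, 362, 357 and 355 in Ctrl, and 331, 329 and 327 in Anti. The sum, formed after seeing the data, was higher in CRLM1-OE by 1.54 on the log2 scale against Ctrl (robust SE 0.0529) and by 1.66 against Anti (robust SE 0.0728, adjusted p = 9.2e-05, robust edgeR). Anti minus Ctrl was -0.14 for the sum (robust SE 0.0227, adjusted p = 2.14e-09, edgeR), the opposite sign to HSPA1A alone.

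**Figure D3:**
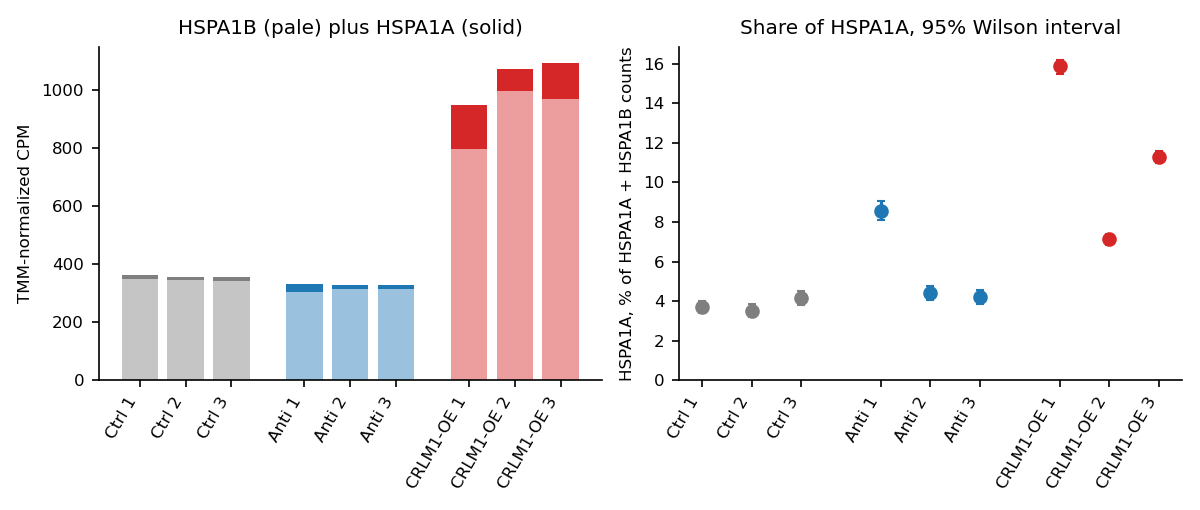
Left, TMM-normalized CPM (y axis from 0) of HSPA1B (pale) with HSPA1A stacked on it (solid) in each of the 9 samples; right, HSPA1A as a percentage of the counts of both genes, with 95% Wilson intervals. The stacks of CRLM1-OE reach 947 to 1090 CPM against 327 to 362 in the controls, while the share of HSPA1A varies from 7.12 to 15.9% within CRLM1-OE.

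HSPA1L, the neighbour that shares its upstream region with HSPA1A, stayed near the floor, with 15, 15 and 25 counts in CRLM1-OE, 10, 5 and 4 in Ctrl, and 6, 3 and 11 in Anti. After scaling, CRLM1-OE did not overlap either control group, and the control groups overlapped each other. Its log2 fold change was 1.42 against Ctrl (SE 0.439) and 1.38 against Anti (SE 0.432, adjusted p = 0.00478, edgeR). Without CRLM1-OE replicate 3 the latter was 1.11 (adjusted p = 0.0765, edgeR), and without Anti replicate 2 it was 1.04 (adjusted p = 0.0587, edgeR). In limma on log2(FPKM + 0.1) it was 0.72 (adjusted p = 0.0705).

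Among the co-chaperones, DNAJB1 had the highest level and a small, uniform rise. Its FPKM was 482, 488 and 479 in CRLM1-OE, 334, 335 and 342 in Ctrl, and 290, 291 and 286 in Anti. The groups were fully separated, with Anti lowest, Ctrl in the middle and CRLM1-OE highest. On the log2 scale CRLM1-OE exceeded Ctrl by 0.41 (SE 0.0186) and Anti by 0.70 (SE 0.0163, adjusted p = 1e-300, edgeR), and Anti fell by 0.31 against Ctrl (SE 0.0194, adjusted p = 4e-56, edgeR), or by 0.21 with total counts as the only scaling.

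HSPH1 ordered the groups differently, at 12.2, 11.9 and 12.0 FPKM in CRLM1-OE, 5.84, 5.97 and 5.85 in Ctrl, and 8.17, 8.32 and 8.96 in Anti. Here Anti lay between Ctrl and CRLM1-OE without overlap, as for HSPA6. The log2 fold change was 0.92 against Ctrl (SE 0.039), 0.46 against Anti (SE 0.0348, adjusted p = 7.07e-39, edgeR) and 0.43 for Anti against Ctrl (SE 0.0415, adjusted p = 4.87e-24, edgeR).

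BAG3 was highest in CRLM1-OE, at 70.7, 70.9 and 68.8 FPKM, against 37.9, 37.2 and 38.1 in Ctrl and 39.2, 39.0 and 41.0 in Anti. CRLM1-OE lay above all other samples, and the control groups overlapped in scaled counts, though not in FPKM. CRLM1-OE exceeded Ctrl by 0.78 (SE 0.028) and Anti by 0.77 (SE 0.0254, adjusted p = 1.78e-201, edgeR) on the log2 scale. Anti minus Ctrl was -0.02 (SE 0.0298, adjusted p = 0.737, edgeR), and 0.09 with total counts as the only scaling (adjusted p = 0.0138, edgeR).

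The small heat shock proteins differed in level by orders of magnitude. HSPB1 was at 554, 549 and 550 FPKM in CRLM1-OE, 452, 464 and 472 in Ctrl, and 472, 472 and 457 in Anti, so CRLM1-OE was above the other samples by little. Its log2 fold change was 0.14 against Ctrl (SE 0.0208; 0.28 with total counts as the only scaling) and 0.19 against Anti (SE 0.0181, adjusted p = 2.17e-25, edgeR). For Anti against Ctrl it was -0.08 (SE 0.0209, adjusted p = 0.00129, edgeR), although the groups overlapped and the sign turned to 0.03 with total counts as the only scaling. CRYAB had 10, 8 and 6 counts in CRLM1-OE, 3, 3 and 0 in Ctrl, and 14, 9 and 2 in Anti. It was lowest in Ctrl, while Anti overlapped both of the other groups. The log2 difference was 1.84 for CRLM1-OE against Ctrl (SE 0.737), -0.11 against Anti (SE 0.513, adjusted p = 0.899, edgeR) and 1.92 for Anti against Ctrl (SE 0.719, adjusted p = 0.0336, edgeR). Without Anti replicate 1, Anti replicate 2 or Ctrl replicate 3 the last value was 1.39, 1.85 and 1.42, with adjusted p of 0.375, 0.107 and 0.185 (edgeR).

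HSF1, the activator, was lower in CRLM1-OE than in Ctrl. Its FPKM was 76.2, 73.7 and 74.2 in CRLM1-OE, 81.5, 79.8 and 80.8 in Ctrl, and 71.0, 70.4 and 70.2 in Anti. Ctrl was above the other groups without overlap, and CRLM1-OE and Anti overlapped in scaled counts, though not in FPKM. The log2 fold change was -0.23 against Ctrl (SE 0.0261), or -0.08 with total counts as the only scaling and -0.11 in limma on log2(FPKM + 0.1). It was 0.04 against Anti (SE 0.0241, adjusted p = 0.272, edgeR), the latter being 0.10 (adjusted p = 0.00012, edgeR) with total counts as the only scaling. Anti was lower than Ctrl, at -0.29 (SE 0.0259, adjusted p = 2.25e-26, edgeR), or -0.18 with total counts as the only scaling. HSF1 exons overlap those of DGAT1 on the other strand, and whether strand was used in counting is not given in the sources used here, so part of these counts may belong to DGAT1.

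**Figure D4:**
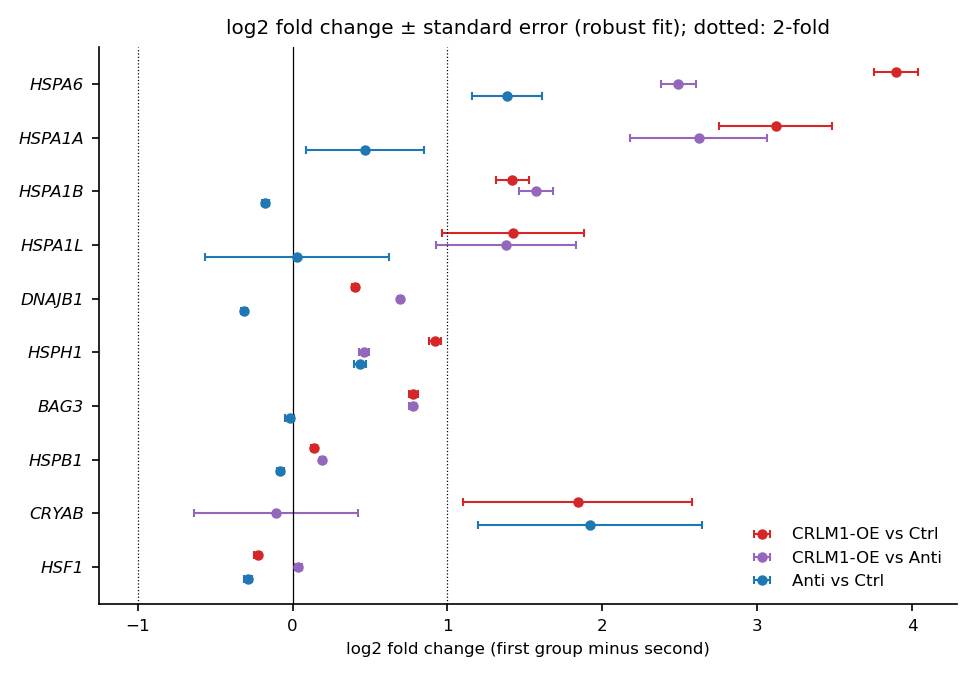
The log2 fold change (x axis) of each gene in the 3 comparisons, as first group minus second, with SE from the robust edgeR fit as bars; dotted lines mark a 2-fold change. HSPA6, HSPA1A, HSPA1B and HSPA1L lie beyond 2-fold against both controls, while DNAJB1, HSPH1, BAG3 and HSPB1 lie between 0 and 2-fold.

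Taking a fold change of at least 2 with an adjusted p of at most 0.05 as called, 5 of the 10 genes were called up in CRLM1-OE against Ctrl: HSPA6, HSPA1A, HSPA1B, HSPA1L and CRYAB. Of all 29846 genes tested, 2.5% were called up there; since the genes were chosen on this comparison, nothing is read from the difference. CRYAB was not called there in DESeq2, in either limma fit, with the replicate block, or without CRLM1-OE replicate 1 or 2 or Ctrl replicate 1 or 3, and filterByExpr removed it. HSPA1L was not called in either limma fit or without CRLM1-OE replicate 3, and HSPH1 passed 2-fold with total counts (1.06) and in limma on log2(FPKM + 0.1) (1.02). Against Anti, HSPA6, HSPA1A, HSPA1B and HSPA1L were called up (4 of 10, against 3.09% of 30183 genes). That comparison shares the CRLM1-OE samples on which the genes were chosen, so nothing is read from this difference either. By adjusted p alone 8 rose, and CRYAB and HSF1 did not pass; 17.1% of all genes rose and 18.5% fell. These shares take in every gene with at least 1 count, of which 12941 reached a mean count of 50 over the 9 samples. Of the 10 genes 8 reached it, so genes of unlike level are set side by side. The median log2 fold change of the 10 was 0.74, and that of all genes tested was -0.02. Since the CRLM1-OE samples are those of the choice, nothing is read from these medians or from the 8 rises. Between Anti and Ctrl, HSPA6 and CRYAB were called up (2 of 10, against 0.683% of 29714 genes). By adjusted p, HSPA6, HSPA1A, HSPH1 and CRYAB rose and HSPA1B, DNAJB1, HSPB1 and HSF1 fell there, against 11.5% and 12.2% of all genes, with a median of 0.01 for the 10 genes and 0.00 (0.0047) for all genes. HSPA1A is not among the rises in the robust edgeR fit, while with total counts as the only scaling HSPB1 is not among the falls and BAG3 is among the rises.

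Other genes of the HSF1 pathway, 26 in all, moved in both directions. This list and those below were chosen with earlier results known, and most named genes for the size of their change. The p-values printed for them are therefore descriptions. All 26 had a mean count of at least 50, whereas the shares over all genes take in every gene with at least 1 count. Against Anti 15 rose, 5 fell and 6 did not pass the test, with a median log2 fold change of 0.14 against -0.02 for all genes. Of all genes 17.1% rose and 18.5% fell there. Against Ctrl 11 rose, 6 fell and 9 did not pass (median 0.06, against 0.02 for all genes), where 15% of all genes rose and 16.8% fell. With total counts as the only scaling the latter became 21 rising and 2 falling, and the split over all genes moved from 47.1% to 69.3% rising among those that passed. IER5, an immediate-early protein that promotes HSF1 activity, was at 58.4, 59.6 and 58.4 FPKM in CRLM1-OE, 27.4, 26.9 and 26.5 in Ctrl, and 28.4, 28.0 and 29.9 in Anti. CRLM1-OE was above both controls, by 1.01 on the log2 scale against Ctrl (adjusted p = 1e-300, edgeR) and by 0.99 against Anti (adjusted p = 1e-300, edgeR). HSPB8, the small heat shock protein that partners BAG3, was at 8.58, 8.81 and 8.85 FPKM in CRLM1-OE and between 3.88 and 4.33 in the 6 control samples. It rose by 0.97 against Ctrl (SE 0.0688, adjusted p = 8.96e-44, edgeR) and by 1.09 against Anti (SE 0.0691, adjusted p = 1.53e-54, edgeR). HSF4, a relative of HSF1 known from the lens, was low at 0.72 to 0.93 FPKM in CRLM1-OE, 0.47 to 0.52 in Ctrl and 0.31 to 0.34 in Anti. Its log2 fold change was 1.31 against Anti (SE 0.196, adjusted p = 1.62e-10, edgeR) and 0.61 against Ctrl (SE 0.177, adjusted p = 0.00211, edgeR). For Anti against Ctrl it was -0.71 (SE 0.215, adjusted p = 0.00515, edgeR).

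Major constitutive chaperones of this list went both ways. HSPA8, the cytosolic HSC70, rose by 0.24 against Ctrl (adjusted p = 6.19e-33, edgeR) and by 0.23 against Anti (adjusted p = 3.26e-40, edgeR). HSPD1, the mitochondrial HSP60, fell by 0.37 against Ctrl (adjusted p = 8.67e-61, edgeR) and by 0.49 against Anti (adjusted p = 1.4e-145, edgeR). With total counts as the only scaling HSPA8 gave 0.39 and HSPD1 -0.23 against Ctrl. HSPA8 and HSPD1 were chosen after their values were seen. Between Anti and Ctrl 5 of the 26 rose and 11 fell (11 and 6 with total counts as the only scaling). Of all genes 11.5% rose and 12.2% fell there. DEDD2 fell by 0.38 there (SE 0.0334, adjusted p = 7.24e-28, edgeR).

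**Figure D5:**
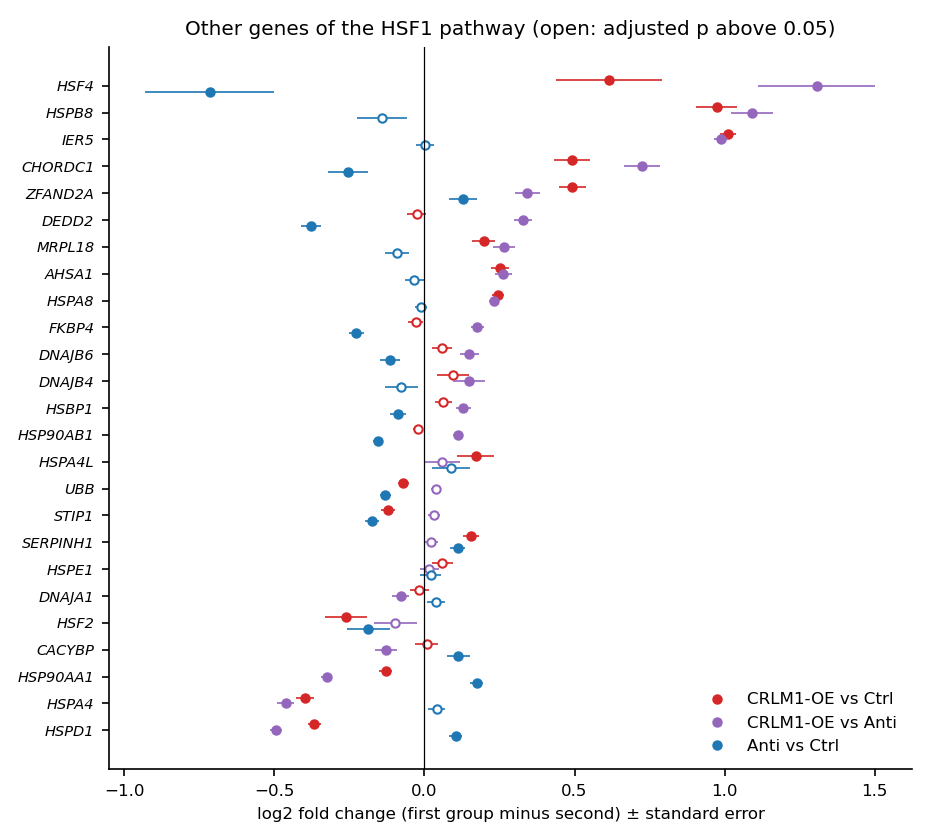
The log2 fold change (x axis) of 25 of the 26 other genes of the HSF1 pathway in the 3 comparisons, ordered by CRLM1-OE against Anti, with SE from the main edgeR fit; open symbols have an adjusted p above 0.05. IER5, HSPB8 and HSF4 lie at the upper end and HSPD1, HSPA4 and HSP90AA1 at the lower end.

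The rest of the HSP70 family, mostly constitutive and organelle forms, also moved in both directions. Of 8 such genes 3 rose and 3 fell against Anti, and 2 rose and 3 fell against Ctrl. Over all genes 17.1% rose and 18.5% fell against Anti, 15% and 16.8% against Ctrl, and 11.5% and 12.2% for Anti against Ctrl. Those shares take in genes of every level, so nothing is read from such counts here or for the lists below. The mitochondrial HSPA9 was at 85.5, 86.0 and 86.7 FPKM in CRLM1-OE, 121, 118 and 115 in Ctrl, and 136, 135 and 136 in Anti. All CRLM1-OE samples were below the controls, by -0.57 against Ctrl (adjusted p = 3.11e-135, edgeR) and -0.70 against Anti (adjusted p = 3.37e-273, edgeR) on the log2 scale. HSPA13, found with microsomes, gave -0.64 (adjusted p = 1.87e-49, edgeR) and -0.82 (adjusted p = 3.13e-94, edgeR), and 0.17 for Anti against Ctrl (adjusted p = 8.33e-05, edgeR), the last being 0.27 with total counts as the only scaling. HSPA14 fell by 0.20 in Anti against Ctrl (adjusted p = 0.012, edgeR; -0.09 and 0.374 with total counts as the only scaling), where 3 of the 8 rose and 1 fell (5 and 0 with total counts as the only scaling). Of 7 other small heat shock protein genes tested, HSPB8 was the 1 that passed the test, in both comparisons of CRLM1-OE; HSPB11 gave -0.07 against Ctrl (adjusted p = 0.588, edgeR; 0.07 with total counts) and -0.20 against Anti (adjusted p = 0.052, edgeR). For Anti against Ctrl 0 of the 7 passed in the main edgeR fit, also 0 at an unadjusted p under 0.05 and in DESeq2. With total counts as the only scaling 0 passed in edgeR, and 1 had an unadjusted p under 0.05. In limma 1 passed on log2(FPKM + 0.1) and 1 on log2(FPKM + 1). The main edgeR fit gave HSPB8 at -0.14 (adjusted p = 0.274) and HSPB11 at 0.11 (adjusted p = 0.471).

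Of the 5 other BAG family genes, 4 fell against Ctrl and BAG4 did not pass (-0.03, adjusted p = 0.695, edgeR). Those that fell included BAG1, the founding co-chaperone of the family, by 0.42 (adjusted p = 1.67e-25, edgeR) and BAG5 by 0.37 (adjusted p = 1.29e-10, edgeR), the latter giving -0.23 with total counts as the only scaling. Against Anti 1 rose and 3 fell, with BAG5 at -0.60 (adjusted p = 1.14e-30, edgeR) and BAG2 at -0.54 (adjusted p = 3e-20, edgeR). Between Anti and Ctrl 2 rose and 1 fell: BAG5 gave 0.21 (adjusted p = 0.000175, edgeR) and BAG6, a protein quality control factor, -0.43 (adjusted p = 2.03e-83, edgeR). Over all genes 15% rose and 16.8% fell against Ctrl, 17.1% and 18.5% against Anti, and 11.5% and 12.2% for Anti against Ctrl. Nothing is read from the counts of these 5 genes.

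Outside the HSF1 pathway, 14 genes of other stress responses were split, with 5 rising and 8 falling against Ctrl and 6 and 7 against Anti. Over all genes 15% rose and 16.8% fell against Ctrl, 17.1% and 18.5% against Anti, and 11.5% and 12.2% for Anti against Ctrl. The immediate-early gene FOS was at 37.3, 37.9 and 37.9 FPKM in CRLM1-OE, 7.61, 8.71 and 8.06 in Ctrl, and 7.62, 7.69 and 6.63 in Anti. Its paralog FOSB and HMOX1, the haem oxygenase of the oxidative stress response, were likewise above both controls in all CRLM1-OE samples. On the log2 scale against Ctrl, FOS gave 2.10 (SE 0.0377), FOSB 2.32 (SE 0.0656) and HMOX1 1.59 (SE 0.0347); against Anti the values were 2.32 (SE 0.0365), 2.18 (SE 0.0632) and 1.30 (SE 0.0312). The chaperone of the endoplasmic reticulum, HSPA5, went down in CRLM1-OE, by -0.36 against Ctrl (adjusted p = 6.11e-124, edgeR; -0.22 with total counts) and -0.52 against Anti (adjusted p = 1e-300, edgeR); it was chosen after its values were seen. The metallothionein MT1E was highest in Anti at 72.0, 72.0 and 68.9 FPKM, against 25.8 to 28.3 in CRLM1-OE (log2 fold change -1.46, SE 0.038, adjusted p = 1e-300, edgeR). For Anti against Ctrl 6 of the 14 rose and 5 fell (7 and 3 with total counts as the only scaling), with MT1E at 0.79 (adjusted p = 2.02e-101, edgeR) and the stress factor ATF3 at -0.54 (adjusted p = 4.97e-149, edgeR).

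Genes with patterns like those of HSPA6, HSPA1A and DNAJB1 were looked for among 558 others that had a mean count of at least 100 and group means at least 1 log2 unit apart. Likeness was the root mean square difference of standardized log2 CPM over the 9 samples, in units of SD, so it compares shape and not size. The order of the groups in the genes below follows largely from this choice, and nothing is read from it. Nearest to HSPA6 were PLCG1 (0.137), RP11-159D12.2 (0.156) and ARVCF (0.163), all with Anti between Ctrl and CRLM1-OE. PLCG1, a phospholipase C, averaged 28.7 CPM in CRLM1-OE, 17.9 in Anti and 13.0 in Ctrl. For HSPA1A they included ACTR5 (0.197) and CAMKK1 (0.207). For DNAJB1 they were SNAI1 (0.0584), CDC20 (0.0593) and DHCR7 (0.063), in which Anti was lowest. CDC20, an activator of the anaphase-promoting complex, averaged 87.4 CPM in Anti, 124 in Ctrl and 206 in CRLM1-OE.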

How the data were processed

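The members and all gene lists were chosen with earlier results of these data known. RNA (polyA selected, KAPA kit, 151 nt paired ends) of 9 samples was sequenced by the authors. They trimmed reads with the FASTX-Toolkit, dropped those under 16 nt, mapped what was left to GRCh38 by TopHat2, allowing 4 mismatches, with Gencode 23 as annotation, and deposited raw counts of uniquely mapped reads. The authors also deposited FPKM values to 2 decimals. Both tables hold genes the authors called expressed; the counting program and its use of strand are not given in the sources used here.

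Counts were tested with edgeR 4.0.16 in R 4.3.3 (TMM, glmQLFit, glmQLFTest), per comparison on 6 samples, for genes with at least 1 count, with Benjamini-Hochberg adjustment over all of them; SE is the log2 fold change divided by the root of F. The prior degrees of freedom came out infinite in all 3 comparisons, so every gene had the spread of the trend. An exact permutation test of 3 against 3 samples cannot go below p = 0.1 and was not used. Alternatives were RLE factors, total counts, filterByExpr, DESeq2 1.42.0, limma 3.58.1 on log2(FPKM + 0.1) and log2(FPKM + 1), all 9 samples, a replicate block, leaving out each sample, and, added after seeing the data, a robust fit and HSPA1A with HSPA1B summed. Shared 151-base windows came from Gencode 44 transcripts and promoters from RefSeq. All 10 members, called list genes and the 2 list genes per comparison with the largest change (mean count of at least 100) were named, and the 3 nearest genes in pattern; 2 genes selected this way are not reported here.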

Additional observations from a re-analysis of the deposited data

How the results depend on the processing

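The number of the 10 genes called in CRLM1-OE against Ctrl was 5, and it was 3 with limma on log2(FPKM + 1) and 10 by adjusted p alone, a description since the genes were chosen on it. Against Anti it was 4, and 8 by adjusted p alone. Between Anti and Ctrl it was 2 (HSPA6 and CRYAB). It was 1 with filterByExpr, DESeq2 and limma on log2(FPKM + 0.1), 0 with limma on log2(FPKM + 1), 8 by adjusted p alone, and 1 to 2 when single samples were left out. In limma on log2(FPKM + 1), HSPA6 passed at an adjusted p of 0.0389 below 2-fold, so for HSPA6 the fold criterion ends the call there. Of 498 refitted log2 fold changes, 457 kept direction and side of the adjusted p threshold, 23 lost that threshold, 3 gained it and 15 changed sign. The fold criterion did not enter these counts. They take in the comparison on which the genes were chosen. They also treat the sum of HSPA1A and HSPA1B as a refit of HSPA1A, although it is a different quantity made up mostly of HSPA1B. HSPH1 against Ctrl counted as kept in 17 of 17 although it passed 2-fold in 2 of them, so the counts do not describe the calls. The sign changes were CRYAB against Anti (0.0158 with limma on log2(FPKM + 0.1), and -0.53 to 0.42 when single samples were left out) and, between Anti and Ctrl, HSPA1L (-0.0098 with the replicate block, and -0.57 to 0.39 when single samples were left out), BAG3 (0.0878 with total counts, 0.0744 and 0.0727 in the limma fits), HSPB1 (0.0273 with total counts, 0.0136 in both limma fits) and HSPA1A summed with HSPA1B (-0.14 in both fits). The cause was not tested.

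Between groups, deviations of same-numbered samples from their group means correlated at -0.0882 to 0.0811. For differently numbered samples the range was -0.132 to 0.166. No source used here says whether equal numbers share a batch, and these correlations cannot exclude it. With the replicate block, 1 gene was called between Anti and Ctrl, CRYAB being lost (adjusted p = 0.0792, edgeR), and 4 were called in each of the other comparisons, CRYAB being lost against Ctrl as well. Without scaling factors the median gene of at least 100 counts moved from -0.05 to 0.09 for CRLM1-OE against Ctrl and from -0.01 to 0.10 for Anti against Ctrl. HSPA1L and CRYAB, at 25 counts or fewer, are limited by depth.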
